A study of Mus musculus with 7 samples.

Results

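The genes described here are serum response factor (Srf), its cofactors Mkl1, Mkl2 and Myocd, and the early response genes Egr1, Fos, Fosb, Junb, Ier2 and Ier3. They were chosen by name from the deposited gene tables, and all 10 were found among 22738 gene rows. Of these, 9 passed the low-count filter and were tested with 10775 genes in all. Fosb did not pass. Expression was measured by RNA sequencing in 3 libraries of Lmnb1-/- epicardial explants and 4 libraries of wild type explants. Both genotypes came from E12.5 embryos of a stock that mixes C57BL/6 with 129S4Sv/Jae and 129S6/SvEvTac, and neither was treated. Lmnb1 encodes lamin B1, a structural protein of the nuclear lamina, and the labels do not state the allele. The explants are cells that grew out of ventricles onto gelatin, so they are a culture and not the intact epicardium.

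SRF is a transcription factor that binds a short A and T rich element, the CArG box. It works with 2 kinds of partner. The myocardin family, which comprises Myocd, Mkl1 (now Mrtfa) and Mkl2 (now Mrtfb), drives contractile and cytoskeletal genes, and MRTFs are held in the cytoplasm by monomeric actin and enter the nucleus as it polymerises. The ternary complex factors Elk1, Elk3 and Elk4 answer to ERK kinase signalling and drive immediate early genes, which are switched on within minutes of serum without new protein synthesis. The encoded early proteins include EGR1, a zinc finger factor, and FOS, FOSB and JUNB, which pair as the AP-1 factor. In the epicardium, SRF and the MRTFs are known for their part in cell motility and in the formation of pericytes and smooth muscle.

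Srf is itself a gene with CArG boxes at its start, and its promoter is shown because it held the only such match among the member promoters searched. RefSeq windows from GRCm38.p6, each reaching from 250 bases before a start site to 50 after it, were on hand for 7 of the 10 members. None was on hand for Egr1, Myocd or Ier2. Capitals mark each CArG box, searched as CC, then 6 letters that are A or T, then GG, a pattern that covers both strands. The Srf window lies at chr17:46556113-46556412 on the minus strand, and the boxes start 82 and 62 bases before the start site.
Srf: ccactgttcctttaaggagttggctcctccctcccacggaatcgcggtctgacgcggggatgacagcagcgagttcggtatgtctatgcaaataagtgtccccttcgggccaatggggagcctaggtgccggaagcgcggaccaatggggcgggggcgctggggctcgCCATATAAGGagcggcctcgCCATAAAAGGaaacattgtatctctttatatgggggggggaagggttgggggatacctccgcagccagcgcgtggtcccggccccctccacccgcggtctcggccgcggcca
The window of vinculin (Vcl), a focal adhesion gene of the contractile target list, lies at chr14:20929148-20929447 on the plus strand and is shown beside it, with its box starting 227 bases before the start site.
Vcl: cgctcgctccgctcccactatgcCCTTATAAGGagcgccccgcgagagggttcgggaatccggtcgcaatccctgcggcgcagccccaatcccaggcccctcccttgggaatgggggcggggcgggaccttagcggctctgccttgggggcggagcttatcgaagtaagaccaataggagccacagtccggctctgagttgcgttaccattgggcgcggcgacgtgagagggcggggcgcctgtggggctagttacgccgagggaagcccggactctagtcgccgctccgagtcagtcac
A CArG box was present in 1.63% of all 32851 promoter windows. In the contractile and cytoskeletal target list, 9 of 29 genes with a window held one, which is 31% of them against 1.81% of all genes. That list was made up of SRF targets, so its share is a description and no test. Among other early genes with a window, 2 of 32 held one, which is 6.25%. A match is a description of the letters and not a measured binding site, and other boxes may lie outside these windows. The cyclic AMP element TGACGTCA, the same on both strands, and the EGR element GCGTGGGCG, searched on both strands, were in none of the windows of these 7 members. They were in 1.79% and 0.612% of all windows.

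Total counts ran from 1786519 to 3066936 in Lmnb1-/- libraries and from 1024898 to 2732236 in wild type libraries. Wild type replicate 2 was the shallowest. Levels are given as CPM, reads scaled to a common TMM-adjusted library total, and 3 counts amounted to between 0.960 and 3.08 CPM. Lmnb1 checked the labels: it had 1.28, 1.12 and 2.04 CPM in Lmnb1-/- libraries against 200.4, 190.1, 183 and 238 CPM in wild type libraries. Xist and Y-linked counts showed all Lmnb1-/- libraries to be male, whereas wild type replicates 1 and 3 were female. Wild type replicate 2 stood apart for several members. It gave the highest level of 7 of the 10 members and of 24.2% of the tested genes. The same library gave the lowest level of 0 members and of 21.4% of the tested genes. Values without it are given for the members it moved most.

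None of the 9 tested members changed between Lmnb1-/- and wild type explants at an adjusted p under 0.05, where 0.705% of all tested genes did. Egr1 came nearest, at a fitted level of 0.364 of wild type. Srf lay at 0.819 of wild type, and Junb and Ier3 were close to equal in both genotypes. Of the 9 members 8 had log2 fold changes below 0, as did 5647 of all 10775 tested genes. The median was -0.25 for the members beside -0.015 over all tested genes. Without wild type replicate 2 the median of the members was -0.10 with 7 below 0, and with sex as a covariate it was -0.52 with 9 below 0. CPM ranges of the genotypes did not overlap for 2 of the 9, Srf and Egr1, both lower in Lmnb1-/- explants. Such separation in either direction was seen for 13.3% of all tested genes, and lower in Lmnb1-/- for 6.94%. The same 2 members had an unadjusted p under 0.05, as did 13.6% of all tested genes, and DESeq2 called 1 member, Egr1. All fold changes are log2 values of Lmnb1-/- over wild type, tested in edgeR by quasi-likelihood with Benjamini-Hochberg correction over all tested genes. Nothing in the labels says whether replicates came from separate embryos, so p-values weigh only the spread between these libraries. In explants, fewer cells of a type and less RNA per cell cannot be told apart.

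**Figure D1:**
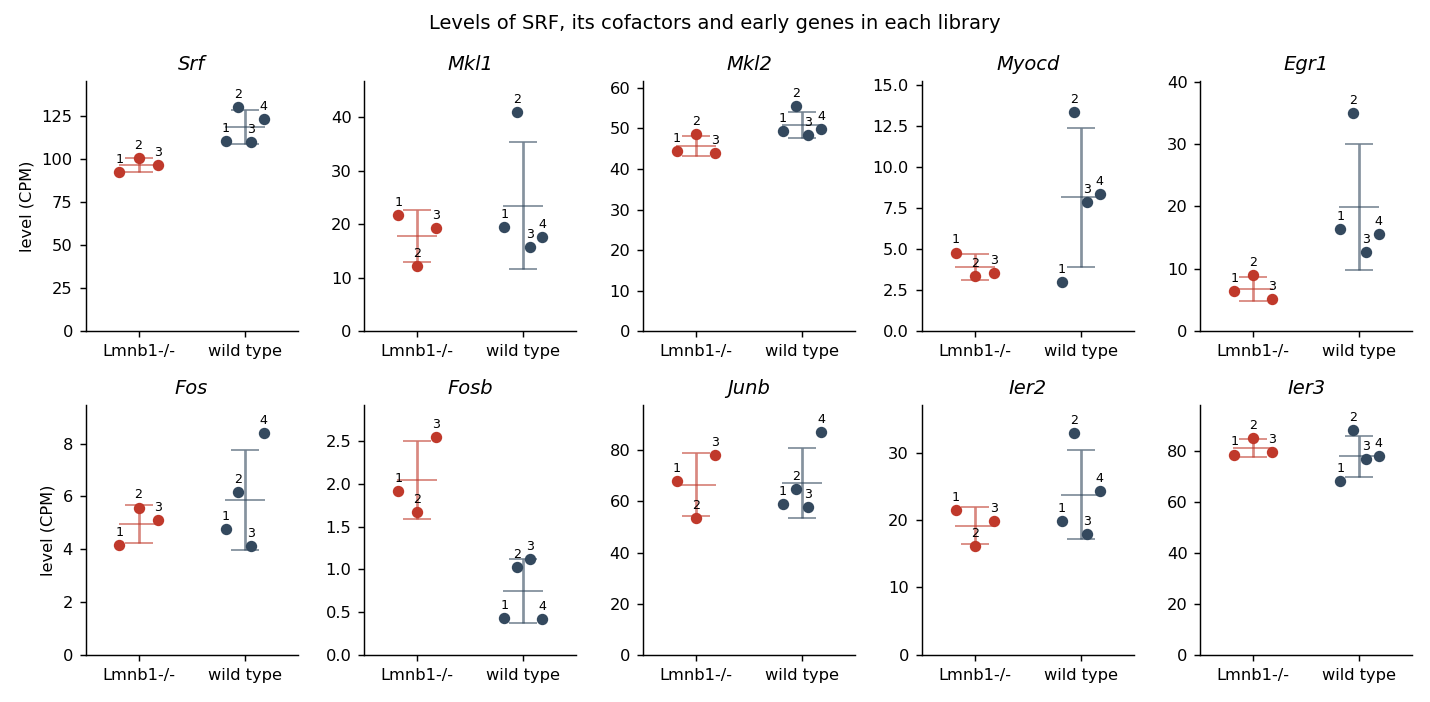
Level in CPM (vertical axes, each from 0) of the 10 genes in the 3 Lmnb1-/- libraries (red) and the 4 wild type libraries (blue), with points numbered by replicate and bars for mean ± SD. Egr1 and Srf lie lower in every Lmnb1-/- library than in any wild type library, Fosb lies higher, and wild type replicate 2 is far above the other points for Egr1 and Mkl1.

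Srf had 92.5, 101 and 97.0 CPM in Lmnb1-/- libraries, against 111, 130.5, 110.1 and 123 CPM in wild type libraries. Every Lmnb1-/- library was below every wild type library, and the gap between the nearest ones, 101 and 110.1 CPM, was narrow. The means were 96.8 ± 4.24 CPM in Lmnb1-/- explants (SD, n = 3) and 119 ± 9.93 CPM in wild type explants (SD, n = 4). Its log2 fold change was -0.29 (SE 0.11, 95% interval -0.53 to -0.045), with an unadjusted p of 0.0235 and an adjusted p of 0.285 in edgeR. Without wild type replicate 2, the highest library, the Srf log2 fold change was -0.24 with an unadjusted p of 0.0514 and an adjusted p of 0.421 in edgeR.

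The MRTF genes did not separate the genotypes. Mkl1, which encodes MRTF-A, had 21.8, 12.3 and 19.4 CPM in Lmnb1-/- libraries against 19.5, 41.1, 15.7 and 17.6 CPM in wild type libraries. The Lmnb1-/- values spanned those of wild type replicates 1, 3 and 4, and only wild type replicate 2 stood above them all. In edgeR the Mkl1 log2 fold change, -0.27 with an SE of 0.33 and an adjusted p of 0.761, turned to 0.052 without that library. Mkl2, which encodes MRTF-B, had 44.5, 48.5 and 43.9 CPM in Lmnb1-/- libraries against 49.3, 55.5, 48.3 and 49.9 CPM in wild type libraries. The ranges met at 48.5 and 48.3 CPM. For Mkl2 the log2 fold change was -0.15 with a 95% interval of -0.44 to 0.15 (adjusted p = 0.681, edgeR), which allows levels from 0.737 to 1.11 of wild type.

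Myocd, the cofactor of cardiac and smooth muscle, was scarce in all libraries, with 15, 6 and 7 counts in Lmnb1-/- libraries against 7, 13, 21 and 20 in wild type libraries. These were 4.80, 3.35 and 3.57 CPM in Lmnb1-/- libraries against 3.03, 13.4, 7.86 and 8.39 CPM in wild type libraries. Wild type replicate 1 was below all 3 Lmnb1-/- libraries and the other wild type libraries were above them. The log2 fold change was -0.92 (SE 0.45, 95% interval -1.88 to 0.042, adjusted p = 0.386 in edgeR). Leaving out wild type replicate 1 moved it to -1.21 (adjusted p = 0.100), and leaving out replicate 2 to -0.68 (adjusted p = 0.575). Myh11, the smooth muscle myosin gene, also had its lowest wild type level in replicate 1, with 17.3, 29.6 and 32.2 CPM in Lmnb1-/- libraries against 31.6, 74.0, 92.5 and 144 CPM in wild type libraries. The likeness did not extend to the Lmnb1-/- libraries, where replicate 1 was the highest for Myocd and the lowest for Myh11.

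Egr1 had the largest difference of the 9 tested genes. Its counts were 20, 16 and 10 in Lmnb1-/- libraries against 38, 34, 34 and 37 in wild type libraries. As levels these were 6.40, 8.92 and 5.10 CPM in Lmnb1-/- libraries against 16.4, 34.9, 12.7 and 15.5 CPM in wild type libraries. All Lmnb1-/- libraries were below all wild type libraries, and wild type replicate 2 was well above the other wild type levels. The means were 6.81 ± 1.94 CPM in Lmnb1-/- explants (SD, n = 3) and 19.9 ± 10.1 CPM in wild type explants (SD, n = 4). The log2 fold change was -1.46 (SE 0.37, 95% interval -2.24 to -0.67), with an unadjusted p of 0.00148 and an adjusted p of 0.0935 in edgeR. It ranked 170th by p among all tested genes and missed the threshold. DESeq2 called Egr1 (adjusted p = 0.0261), where 175 of the 10775 genes entered, 1.62%, were called. It gave no adjusted p for Myocd or Fos, so neither could be called there. Without the count filter, edgeR also called Egr1 (adjusted p = 0.0146), where 1.07% of genes were called. Without wild type replicate 2 the log2 fold change was -1.13 (adjusted p = 0.108), and the CPM ranges still lay apart.

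**Figure D2:**
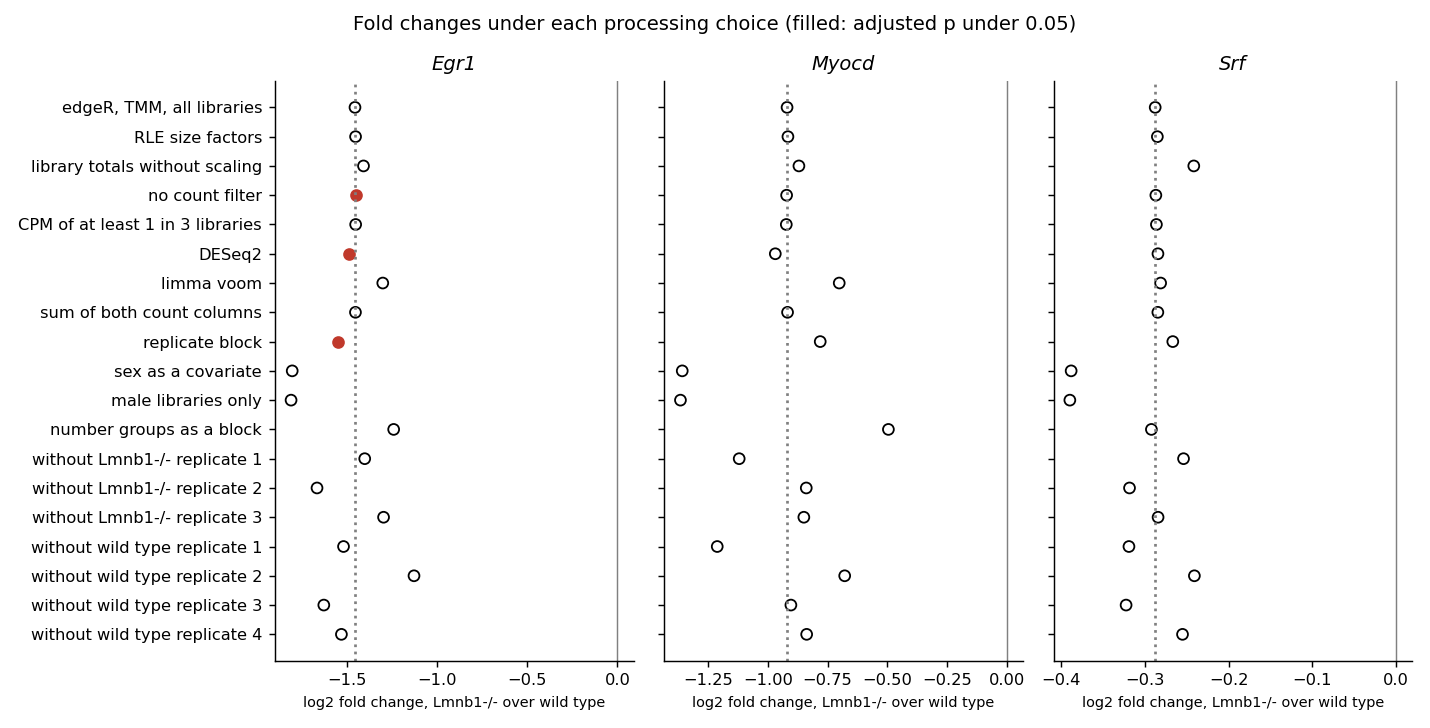
Log2 fold change, Lmnb1-/- over wild type (horizontal axes, which differ in scale between panels), of Egr1, Myocd and Srf under each processing choice (rows); filled points have an adjusted p under 0.05 and the dotted line marks the value of the top row. Egr1 stays between -1.81 and -1.13, Myocd spreads from -1.37 to -0.50, and Srf stays between -0.39 and -0.24 with no filled point.

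The AP-1 genes showed no detectable common shift. Fos, the classic serum-induced gene, had 13, 10 and 10 counts in Lmnb1-/- libraries against 11, 6, 11 and 20 in wild type libraries. Its levels of 4.16, 5.58 and 5.10 CPM in Lmnb1-/- libraries lay within the wild type range of 4.76, 6.16, 4.12 and 8.39 CPM. The Fos log2 fold change was -0.25, with an SE of 0.38 and an adjusted p of 0.809 in edgeR, and turned to 0.031 without wild type replicate 4. Junb was far better covered, with 67.8, 53.5 and 78.1 CPM in Lmnb1-/- libraries against 58.9, 64.7, 57.7 and 87.2 CPM in wild type libraries. The Junb ranges overlapped in large part, with Lmnb1-/- replicate 2 the lowest library and wild type replicate 4 the highest, and means of 66.5 ± 12.3 CPM in Lmnb1-/- explants (SD, n = 3) and 67.1 ± 13.8 CPM in wild type explants (SD, n = 4). Its log2 fold change was -0.012 with a 95% interval of -0.39 to 0.36 (adjusted p = 0.988, edgeR), and its sign changed with library totals in place of TMM, to 0.034.

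Fosb was barely detected and did not pass the count filter. Its counts were 6, 3 and 5 in Lmnb1-/- libraries against 1, 1, 3 and 1 in wild type libraries. Every Lmnb1-/- level, at 1.92, 1.67 and 2.55 CPM, was above the wild type levels of 0.433, 1.03, 1.12 and 0.419 CPM, a separation seen in 6.35% of tested genes. Pooled, 14 counts in Lmnb1-/- against 6 in wild type gave a ratio of 2.83 with an exact 95% interval of 1.02 to 8.98, which covers counting error only. In edgeR without the count filter the Fosb log2 fold change was 1.43 with an unadjusted p of 0.0761 and an adjusted p of 0.543, and with a minimum of 1 CPM in 3 libraries the unadjusted p was 0.0512 and the adjusted p 0.406. Its direction was opposite to that of Egr1, at a depth of a few reads per library.

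Ier2 and Ier3, early genes first found by their response to growth factors, did not separate the genotypes. Ier2 had 21.4, 16.2 and 19.9 CPM in Lmnb1-/- libraries against 19.9, 32.9, 17.98 and 24.3 CPM in wild type libraries. Most libraries of both genotypes lay together and wild type replicate 2 was again the highest. The Ier2 log2 fold change was -0.24 (SE 0.23, adjusted p = 0.683, edgeR) and -0.090 without wild type replicate 2. Ier3 had 78.7, 85.3 and 79.6 CPM in Lmnb1-/- libraries against 68.4, 88.4, 77.2 and 78.0 CPM in wild type libraries. For Ier3 the log2 fold change was 0.070, and its 95% interval of -0.20 to 0.34 (adjusted p = 0.843, edgeR) allows levels from 0.872 to 1.26 of wild type. It was the only tested member above 0, though its sign changed with sex as a covariate, to -0.024, and within male libraries, to -0.025.

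**Figure D3:**
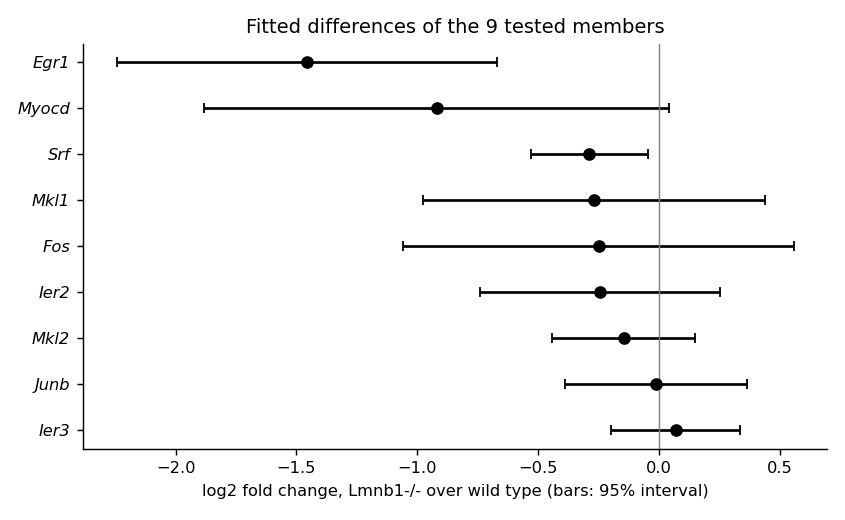
Log2 fold change, Lmnb1-/- over wild type (horizontal axis), of the 9 tested genes (rows), with bars for the 95% interval of the edgeR fit before any adjustment for the number of genes. Egr1 at -1.46 and Srf at -0.29 have intervals that end below 0, Myocd at -0.92 has a wide interval that reaches 0.042, and the other intervals include 0.

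Spread between libraries differed among the members. In wild type libraries the coefficient of variation was 8.37% for Srf, 6.34% for Mkl2 and 10.5% for Ier3, and about 50% for Mkl1 (50.4%), Myocd (51.7%), Egr1 (50.9%) and Fosb (50.2%). Without wild type replicate 2 it was 10.6% for Mkl1 and 12.96% for Egr1, but 46.0% for Myocd and 61.2% for Fosb. In Lmnb1-/- libraries it was 4.38% for Srf, 5.53% for Mkl2 and 4.42% for Ier3, and 28.5% for Egr1. The scarce genes carry few counts, so a part of their spread is counting error. Per kilobase of exon in a GRCm38 annotation, which may differ from the one used for counting, Ier3 was the most abundant member at 71.8 ± 3.17 CPM per kilobase in Lmnb1-/- explants (SD, n = 3) and 68.9 ± 7.23 in wild type explants (SD, n = 4). Srf (37.0 in Lmnb1-/- and 45.4 in wild type) and Junb (36.8 in Lmnb1-/- and 37.1 in wild type) came next, and within each genotype the ranges of these neighbouring genes overlapped. Below them were Ier2 (12.6 in Lmnb1-/- and 15.6 in wild type), Mkl2 (5.08 and 5.65) and Mkl1 (3.77 and 4.97), of which the Mkl genes overlapped in wild type libraries. Fos (2.35 in Lmnb1-/- and 2.78 in wild type), Egr1 (1.52 and 4.44), Myocd (0.762 and 1.59) and Fosb (0.542 and 0.199) were the lowest. Mean Egr1 lay above mean Fos in wild type explants and below it in Lmnb1-/- explants, with overlapping ranges in both.

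Each table carries a library number, and libraries with neighbouring numbers may have been handled together, though the labels name no batch. A group held Lmnb1-/- replicate 1 with wild type replicate 1, another held Lmnb1-/- replicates 2 and 3 with wild type replicate 4, and wild type replicates 2 and 3 had no Lmnb1-/- partner. Egr1 was lower in Lmnb1-/- libraries in both groups, with differences in log2 CPM of -1.25 and -1.09, and so was Srf, with -0.26 and -0.31. Fos (-0.16 and -0.57) and Mkl2 (-0.15 and -0.11) were also lower in both. Fosb was higher in both, by 1.07 and 1.16, as was Ier3, by 0.20 and 0.079. Myocd differed in sign, with 0.53 in the first group and -1.09 in the second, as did Junb (0.20 and -0.43), Ier2 (0.10 and -0.42) and Mkl1 (0.15 and -0.18). With the groups as a block, the Egr1 log2 fold change was -1.24 (adjusted p = 0.251, edgeR). Each difference rests on 2 or 3 libraries and has no test of its own. All 3 Lmnb1-/- libraries were male, and in male libraries alone the Egr1 log2 fold change was -1.81 (adjusted p = 0.0625, edgeR) and Srf -0.39 (adjusted p = 0.180).

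Among contractile and cytoskeletal targets of SRF, 4 genes fell in Lmnb1-/- explants and most did not pass the test. The list, drawn up with earlier results of these data known, had 34 tested genes, of which 0 rose and 30 did not pass in edgeR. Those that fell were Speg, Des, Acta2 and Actg2, against 0.343% of all tested genes called lower. In all 33 of the 34 had log2 fold changes below 0, as did 5647 of all 10775 tested genes. The median was -0.45 in the list beside -0.015 over all tested genes. Ranges lay apart and lower in Lmnb1-/- for 15 of the 34, as they did for 6.94% of all tested genes. Speg, a muscle kinase gene, had 26.2, 30.1 and 19.4 CPM in Lmnb1-/- libraries against 55.4, 77.1, 75.3 and 53.7 CPM in wild type libraries, a log2 fold change of -1.35 (adjusted p = 0.0130, edgeR). Acta2, encoding smooth muscle alpha actin, averaged 3596 ± 109 CPM in Lmnb1-/- explants (SD, n = 3) and 5110 ± 247 CPM in wild type explants (SD, n = 4), with a log2 fold change of -0.51 (adjusted p = 0.0367, edgeR). Acta2 did not pass with sex as a covariate (adjusted p = 0.0938), in male libraries alone (0.0547), with the number groups as a block (0.0565), with the replicate number as a block (0.0705) or with both count columns summed (0.0582). Des, the desmin gene, and Actg2, encoding smooth muscle gamma actin, had log2 fold changes of -1.06 and -2.21 (adjusted p = 0.0294 and 0.0491, edgeR). Actg2 did not pass in limma voom (adjusted p = 0.0840), nor in edgeR without the count filter (0.0991) or with both count columns summed (0.0506). No target passed once wild type replicate 3, or any single Lmnb1-/- library, was left out. Leaving out wild type replicate 1 gave 11 that fell, replicate 2 gave 2 and replicate 4 gave 3. The cytoplasmic actin gene Actb and the tropomyosin gene Tpm4, chosen once their values were known, were close to equal, at -0.021 and -0.033.

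**Figure D4:**
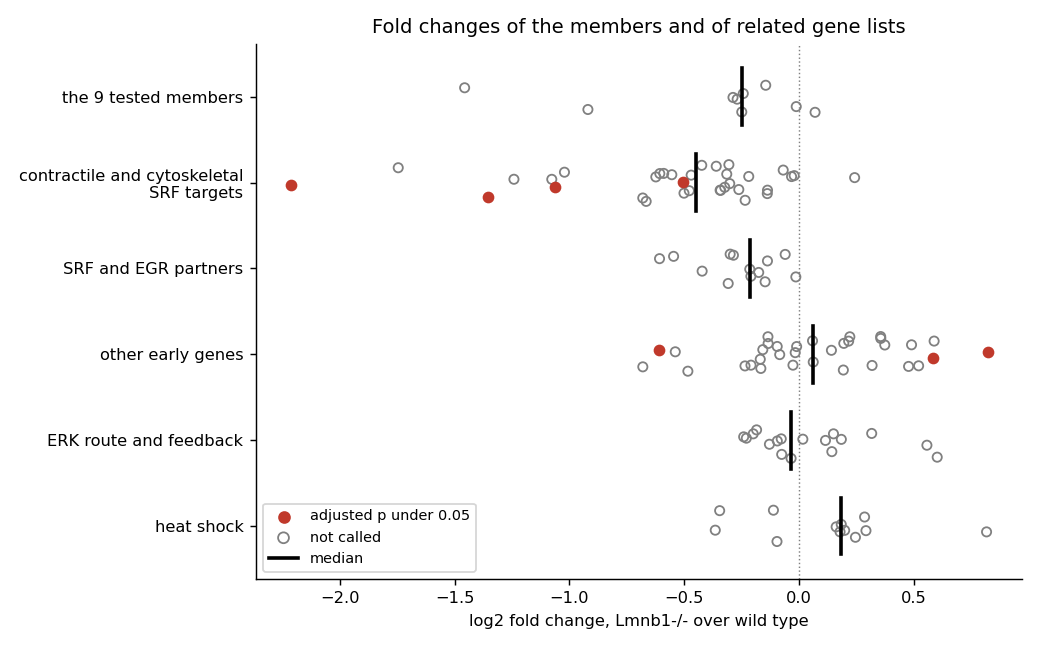
Log2 fold change, Lmnb1-/- over wild type (horizontal axis), of the tested members and of the tested genes of 5 related lists (rows), with filled points at an adjusted p under 0.05 and a black bar at each median. The medians are -0.25 for the members, -0.45 for contractile and cytoskeletal targets, -0.21 for SRF and EGR partners and 0.059 for other early genes.

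Tested partners of SRF and EGR1 had log2 fold changes below 0, some of them close to it. In this list 13 of 16 genes were tested, and 0 passed in edgeR, DESeq2 or limma voom. An unadjusted p under 0.05 in edgeR was seen for 3, as it was for 13.6% of all tested genes. All 13 had log2 fold changes below 0, as did 5647 of all 10775 tested genes. The median was -0.21 in the list beside -0.015 over all tested genes. Nab2, an EGR co-repressor that EGR1 is known to induce, had 66.6, 68.6 and 75.5 CPM in Lmnb1-/- libraries against 87.4, 124, 104 and 98.1 CPM in wild type libraries. The Nab2 ranges lay apart, and its log2 fold change was -0.55 (adjusted p = 0.0898, edgeR). Nab2 passed in edgeR without the count filter (adjusted p = 0.0368) and without wild type replicate 1 (0.0312). Scai, a suppressor of MRTF and SRF activity, had -0.61 (adjusted p = 0.166), the transcription factor gene Gata6 had -0.42 (0.147) and the ternary complex factor gene Elk4 had -0.30 (0.378) in the same edgeR test. The other ternary complex factor genes Elk1 and Elk3, chosen once their values were known, had -0.21 and -0.060.

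Other early genes went in both directions. Of 41 in the list 33 were tested, and 2 rose, 1 fell and 30 did not pass in edgeR. Over all tested genes 0.362% were called higher and 0.343% lower. Log2 fold changes were above 0 for 17 of the 33, as for 5128 of all 10775 tested genes. The median was 0.059 in the list beside -0.015 over all tested genes. Sgk1, a serum- and glucocorticoid-induced kinase gene, rose, with 144, 137 and 131 CPM in Lmnb1-/- libraries against 92.2, 66.8, 63.7 and 86.0 CPM in wild type libraries. Its log2 fold change was 0.82 (adjusted p = 0.0225, edgeR). Hbegf, encoding a ligand of the EGF receptor, rose to 195 ± 17.2 CPM in Lmnb1-/- explants (SD, n = 3), against 129 ± 11.2 CPM in wild type explants (SD, n = 4), with a log2 fold change of 0.58 (adjusted p = 0.0360, edgeR). Rhob, an early gene encoding a small GTPase, fell to 102 ± 13.8 CPM in Lmnb1-/- explants (SD, n = 3), against 156 ± 14.7 CPM in wild type explants (SD, n = 4), at -0.61 (adjusted p = 0.0481, edgeR). Tiparp, a PARP enzyme gene, had 0.52 and did not pass (adjusted p = 0.0976, edgeR). Tiparp passed in DESeq2 (adjusted p = 0.0403), in edgeR without the count filter (0.0260), with the replicate number as a block (0.0474) and without wild type replicate 1 (0.0285). None of the 33 passed once wild type replicate 3, or any single Lmnb1-/- library, was left out, whereas leaving out wild type replicate 1 gave 5 that rose and 1 that fell. With wild type replicate 2 or 4 left out 1 rose. With sex as a covariate none passed. With library totals in place of TMM, Rhob did not pass (adjusted p = 0.0711, edgeR).

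Genes of the ERK route to the ternary complex factors lay on both sides of 0. Of 17 tested genes in the list of the ERK route and its feedback, 0 passed in edgeR. An unadjusted p under 0.05 in edgeR was seen for 1 of them and for 13.6% of all tested genes. The median log2 fold change of the list was -0.035. In limma voom 0 passed, and in DESeq2 1 rose, Dusp4, where 1.62% of all tested genes were called. The ERK phosphatase gene Dusp4 had 393, 337 and 321 CPM in Lmnb1-/- libraries against 274, 223, 168 and 259 CPM in wild type libraries, with ranges apart and a log2 fold change of 0.60 (adjusted p = 0.101, edgeR). Dusp4 passed in DESeq2 (adjusted p = 0.0249), in edgeR without the count filter (0.0310), with the replicate number as a block (0.0311) and without wild type replicate 1 (0.0358). The feedback inhibitor genes Spry2, Spred2 and Spry4 had 0.32, 0.56 and -0.24 (adjusted p = 0.459, 0.508 and 0.573, edgeR).

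Markers of cell type and handling were set beside the early genes. Heat shock genes had a summed level of 941 to 1113 CPM in Lmnb1-/- libraries and 718 to 944 CPM in wild type libraries. Of the 12, 8 had log2 fold changes above 0 and 4 below, where 5128 of all 10775 tested genes were above 0. In edgeR, DESeq2 and limma voom 0 of the 12 passed, and 0 had an unadjusted p under 0.05 in edgeR. The 4 of smallest p were Hsp90aa1, Hsph1, Dnajb1 and Hspd1, at 0.25, 0.29, 0.20 and 0.29, while Bag3 and Hsf1, chosen once their values were known, had -0.35 and -0.36. For Hsp90aa1 and Hspd1 the unused second column held more counts than the first in every library. Hsp90aa1 had 4292 against 795 in Lmnb1-/- replicate 1 and 2723 against 514 in wild type replicate 1. With both columns summed, the median of the heat shock list moved from 0.18 to 0.12. Smooth muscle markers summed to 7648 to 8392 CPM in Lmnb1-/- libraries and 10127 to 11293 CPM in wild type libraries. In edgeR 2 of 5 fell, Acta2 and Actg2, where 0.343% of all tested genes were called lower. All 5 of these markers are also in the list of SRF targets, so they are no separate measurement. With wild type replicate 2 left out, or both count columns summed, 0 of the 5 passed. Tagln, an actin-binding gene of that list, had -0.34, and its Myh11 had -1.75 (adjusted p = 0.148 and 0.279, edgeR). Epicardial markers summed to 1377 to 1707 CPM in Lmnb1-/- libraries and 1734 to 2414 CPM in wild type libraries. In edgeR 0 of these 10 passed and 5 had an unadjusted p under 0.05, where 13.6% of all tested genes did. In limma voom 0 passed. In DESeq2, where 1.62% of all tested genes were called, 3 passed, Bnc1 (adjusted p = 0.0209), Upk3b (0.0286) and Krt8 (0.0348). In the edgeR fit, Bnc1, Aldh1a2 and Upk3b had log2 fold changes of -0.49, -0.36 and -0.73, and Krt8 had 0.87. Krt8 also had many counts in the unused second column. These were 200 against 187 in the first for Lmnb1-/- replicate 1, and 119 against 123 for wild type replicate 4. Macrophage and leukocyte markers ranged from 27.5 to 333 CPM in Lmnb1-/- libraries and from 36.0 to 197 CPM in wild type libraries. Endothelial markers summed to 26.2 to 40.2 CPM in Lmnb1-/- and 20.6 to 48.2 CPM in wild type libraries, and red blood cell markers to 2.24 to 18.4 and 2.62 to 9.64 CPM. Of 6 endothelial markers 2 were tested and 0 passed in edgeR. Kdr had 1.40 and Tek -0.50 (adjusted p = 0.122 and 0.607, edgeR). The Kdr ranges lay apart and higher in Lmnb1-/-, as did those of 6.35% of all tested genes. Cardiomyocyte markers summed to 426 to 569 CPM in Lmnb1-/- and 373 to 767 CPM in wild type libraries, with Actn2 and Myh7 at 0 in all libraries. The part of these markers in the levels of Egr1, Myocd and Srf was not tested.

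Some genes lay close to the pattern of Srf, or to the mean of the early genes, across the 7 libraries. Centred on each gene's mean, Srf lay between -0.23 and -0.10 on the log2 scale in Lmnb1-/- libraries and between 0.020 and 0.26 in wild type libraries. The nearest genes by root-mean-square distance were Mtmr1 (0.029), Slc25a36 (0.048), Pskh1 (0.048), Mettl10 (0.050) and Ikbkb (0.052). The mean of the 6 early genes lay between -0.11 and -0.047 in Lmnb1-/- libraries and between -0.14 and 0.38 in wild type libraries, highest in wild type replicate 2. Nearest to that mean were Frk (0.046), Fndc3b (0.049), Lancl3 (0.051), Sec24c (0.053) and Ubn2 (0.054). The mean is taken over early genes that differ from each other. Egr1 ran from -1.10 to 1.47, and Fosb lay above its mean in every Lmnb1-/- library and below it in every wild type library. The named genes were picked for their small distance, so their closeness follows from the choice.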

How the data were processed

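Counts per gene were deposited for 7 libraries in 2 unnamed columns, with no normalization per the file headers. The first column was used. The second held 0 counts for every one of the 10 genes and 16.6 to 19.6% of all counts. TopHat, edgeR and the build mm9 appear in the submitters' processing notes, and the counting program was not given in the sources used here. Per the labels, the kit was Illumina TruSeq v2. Genes were filtered with filterByExpr, scaled by TMM and tested with edgeR 4.0.16 (limma 3.58.1, R 4.3.3), quasi-likelihood with robust dispersion, all 7 libraries, no covariate, adjusted p under 0.05. The standard error is the fold change over the root of the F statistic. Intervals from counts cover counting error only. Log2 CPM used a prior count of 2. The test was also run on simulated data, whose outcome is not reported here and is not used for any gene. Members and lists were chosen with earlier results of these data known, and a further list is not reported here.

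The text names the 10 members, Lmnb1, the called and up to 4 genes of smallest p in each list (cell type lists other than smooth muscle and epicardial are given as sums), and the 5 genes of mean log2 CPM of at least 3 nearest to Srf and to the early genes. The 2 tested endothelial genes are also named, and were added once their values were known. Others are said to be chosen once their values were known. Alternatives were RLE, library totals, no filter, DESeq2 1.42.0, a minimum of 1 CPM in 3 libraries, limma voom, both columns summed, a replicate block, sex, male libraries, number groups as a block (gap over 2), and each library left out. DESeq2 gave no adjusted p for some genes, among them Fos, Myocd and Spred2, and shares called in DESeq2 count such genes as not called. Replicates of a group differed by more than sampling noise, with chi-square per degree of freedom from 2.22 to 7.71.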

Additional observations from a re-analysis of the deposited data

Results flagged for a closer look

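In wild type explants, 2 genes had a library far from the other 3. Egr1 stood at 34.9 CPM in wild type replicate 2, against 12.7 to 16.4 CPM in wild type replicates 1, 3 and 4. Mkl1 stood at 41.1 CPM in the same library, against 15.7 to 19.5 CPM in the others. In all 47 genes were examined in this way, and chance alone marks about 1 in 20. Wild type replicate 2 was the shallowest library, with 1024898 counts, and the part of depth in these values was not tested.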

How the results depend on the processing

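Beside 76 called genes and 0 called members, edgeR without the count filter called 180 genes and 1 member (Egr1), DESeq2 called 175 and 1 (Egr1), the sum of both count columns called 44 genes, and sex as a covariate called 38. Leaving out single libraries gave 3 to 279 called genes (lowest without Lmnb1-/- replicate 2, highest without wild type replicate 1) and 0 called members. At an unadjusted p under 0.05, 2 members passed in the edgeR fit of all libraries. Egr1 kept its direction and an unadjusted p under 0.05 in all 18 alternatives, with adjusted p from 0.0146 to 0.304. Srf kept its direction in all 18 and an unadjusted p under 0.05 in 11, with adjusted p from 0.160 to 0.545.

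The Junb log2 fold change was 0.034 with library totals and 0.16 with the replicate block, and -0.13 to 0.16 with single libraries left out. That of Ier3 was -0.024 with sex as a covariate and -0.025 in male libraries. With single libraries left out Mkl1 ran from -0.45 to 0.052 and Fos from -0.41 to 0.031. None of these genes was called in any alternative, and the cause of the sign changes was not tested.

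With the replicate number as a block, 77 genes passed, of which 35 were among the 76, and 1 member passed, Egr1 (log2 fold change -1.55, adjusted p = 0.0362). The numbers were not read as pairs: the deviations of same-numbered libraries correlated at 0.29, -0.15 and -0.068, and only replicate 1 of Lmnb1-/- was closest to its own number.

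Of the values of single genes, lists and distances, 864 stayed the same under an alternative, 53 lost a call, 27 gained one, 4 moved and 8 changed sign. For a tested gene, the same means that direction and side of the threshold were kept. For list medians, distances and the ratio of mean Fosb levels, it means a shift smaller than the SD within genotypes, whatever the sign. Sign changes were counted for single genes only. Some list medians changed sign too, such as that of the ERK list, from -0.035 to 0.075 with sex as a covariate. Depth limits Fos, Fosb, Myocd and Egr1, which had at most 38 counts in any library.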
